A study of Mus musculus with 2 samples.

Results

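The 10 genes Il10, Tgfb1, Ebi3, Gzmb, Entpd1, Nt5e, Lrrc32, Fgl2, Areg and Nrp1 encode molecules through which regulatory T cells (Tregs) restrain other cells or help tissues repair. They were taken by symbol, without a threshold on any value, and are 10 of the 32285 features of the count tables. Transcripts had been counted by droplet single-cell RNA sequencing in 2 libraries of sorted YFP+ cells, viable by 7AAD exclusion, from spleens of 7-day-old C57BL/6J mice. One library was WT (Foxp3-Cre) and the other KO (Zfp335fl/flFoxp3-Cre). Both genotypes therefore carried the Cre recombinase driven by Foxp3, the lineage factor of Tregs, and in KO it deletes the floxed Zfp335 gene, which encodes a zinc finger protein, in the cells that express Foxp3. The number of mice behind a library is not given in the sources used here. Neither genotype was replicated, so no test was run and no p-value is given. Levels are the unique molecular identifiers (UMIs) of a gene divided by the UMIs of all genes, on the counts-per-million scale (CPM), summed over the barcodes of a library and state, and every interval is an exact 95% interval that covers counting error only.

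Tregs act through several kinds of molecule. They secrete cytokines, among them IL-10, TGF-β1 (Tgfb1) and IL-35, a heterodimer that contains the Ebi3 chain. They release granzyme B (Gzmb), a serine protease that kills target cells. On their surface CD39 (Entpd1) and then CD73 (Nt5e) degrade extracellular ATP to adenosine, and GARP (Lrrc32) holds latent TGF-β until an integrin frees it. Fibrinogen-like protein 2 (Fgl2) binds an inhibitory Fc receptor, amphiregulin (Areg) is a growth factor for the epidermal growth factor receptor, and neuropilin-1 (Nrp1), a receptor for semaphorins and VEGF, is widely used as a mark of Tregs made in the thymus.

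Promoter stretches of 3 genes are shown because these genes gave the unlike patterns described below: Gzmb, whose ratio between genotypes differed most among states, Areg, which was higher in one KO state and lower in another, and Tgfb1, which was near constant. Each is the 250 bases before the annotated start, 5′ to 3′ on the strand of the gene, from the RefSeq promoter table on GRCm38.p6 (the mm10 build). Capitals mark motif matches. Gzmb lies at chr14:56258838-56262260 on the minus strand and its window at chr14:56262335-56262584. The gene positions are from GENCODE, whose Gzmb start does not adjoin the window, as the RefSeq table places the start elsewhere. Motif distances below are counted from the RefSeq start. Areg lies at chr5:91139599-91148432 on the plus strand and its window at chr5:91139349-91139598. Tgfb1 lies at chr7:25687002-25705077 on the plus strand and its window at chr7:25686752-25687001.
Gzmb: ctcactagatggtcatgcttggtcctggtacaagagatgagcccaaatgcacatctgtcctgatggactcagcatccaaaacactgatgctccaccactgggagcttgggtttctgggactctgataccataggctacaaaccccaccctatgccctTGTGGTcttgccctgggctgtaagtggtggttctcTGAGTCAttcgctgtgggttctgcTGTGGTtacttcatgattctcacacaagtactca
Areg: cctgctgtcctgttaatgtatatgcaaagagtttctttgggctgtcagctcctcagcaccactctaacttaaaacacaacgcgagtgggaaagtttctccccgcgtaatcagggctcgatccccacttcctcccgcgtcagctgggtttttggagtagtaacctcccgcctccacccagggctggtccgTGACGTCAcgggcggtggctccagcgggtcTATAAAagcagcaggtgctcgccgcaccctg
Tgfb1: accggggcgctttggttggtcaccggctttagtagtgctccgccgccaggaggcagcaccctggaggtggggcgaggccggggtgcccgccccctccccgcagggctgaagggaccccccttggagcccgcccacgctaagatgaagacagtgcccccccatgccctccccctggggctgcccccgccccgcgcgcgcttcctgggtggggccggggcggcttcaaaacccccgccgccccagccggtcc

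In the Gzmb window the capitals are 2 RUNX motifs (TGTGGT), 93 to 88 and 34 to 29 bases before the start, and 1 AP-1 motif (TGANTCA, N being any base), 58 to 52 bases before it. In the Areg window they are a cyclic AMP response element (TGACGTCA) 61 to 54 bases and a TATA box (TATAAA) 31 to 26 bases before the start. The Tgfb1 window held no match to these motifs, to the STAT motif (TTCNNNGAA) or to the forkhead motif (GTAAACA), had 75.2% G and C and held 21 CG pairs, against 50.8% and 1 pair in the Gzmb window. Both strands were searched, and none of the matches overlapped another. Among 32851 mouse promoter windows of the same length, 14.1% held the RUNX motif, 6.75% AP-1, 1.55% the cyclic AMP response element, 12.4% the TATA box, 7.02% STAT and 3.17% forkhead. A match is a run of letters and not a measured binding site.

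In all, 14524 WT and 18134 KO barcodes carried 64567991 and 65480052 UMIs. The filter of 300 genes or more and 5% mitochondrial UMIs or less was passed by 8053 WT and 13767 KO barcodes, and 7840 and 12790 remained after likely doublets had been removed. Zfp335 itself had 384 UMIs in WT T-lineage barcodes and 41 in KO, a KO to WT ratio of 0.103 (0.0728 to 0.142). The 5 Treg markers did not move as one. Foxp3 was at a ratio of 1.10, Il2ra at 1.52, Tnfrsf18 at 1.22, Ctla4 at 0.968 and Ikzf2 at 0.614 (0.603 to 0.625). The T cell receptor component Cd3e was at 0.939. Barcodes were grouped anew by clustering without the 10 genes, and the names are not the study's own annotation. The 6 named T cell states were resting Treg-like (2187 WT and 3518 KO barcodes), interferon-led resting Treg-like (127 and 1199, with interferon-induced genes such as Ifit3 and Ifit1 in the lead), activated Treg-like (491 and 1096), cycling T (566 and 710), cycling effector Treg-like (615 and 335) and effector Treg-like (1705 and 89). The other T-lineage barcodes fell into 5 unnamed clusters of low depth, of which cluster 2 held 131 WT and 4003 KO barcodes and was led by Mpo and hemoglobin genes. The 7318 WT and 12086 KO T-lineage barcodes had medians of 4998 and 2692 UMIs. Under 1 name the libraries were not alike in the marker lists. In cycling effector barcodes the 10 effector markers summed to 4014 CPM in WT and 626.2 CPM in KO (Klrg1 at 0), the 8 resting markers to 1170 and 1926 CPM, and the 10 G2/M markers to 1992 and 4388 CPM. In cycling T barcodes the effector markers summed to 2323 and 335.0 CPM, and in effector barcodes to 4007 and 2925 CPM. When barcodes up to 10% mitochondrial UMIs were let in and clustered anew, the cycling effector name went to 52 WT and 281 KO barcodes. Ratios within these states therefore compare barcodes that differ in their markers, and the part of this in each ratio was not tested. A cluster held mostly by 1 library may follow that library as well as a cell state. A lower level per barcode and fewer expressing cells within a state cannot be told apart from the summed UMIs.

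Over all T-lineage barcodes, 5 of the 10 genes, Il10, Gzmb, Nt5e, Fgl2 and Nrp1, were at least 2-fold lower in KO, and none was 2-fold higher. Of all genes with at least 50 UMIs, 5.52% were 2-fold lower and 2.43% were 2-fold higher. The median KO to WT ratio of the 10 genes was 0.473, against 0.953 for all 12152 genes. Tgfb1, Lrrc32 and Areg stood apart from the others, with ratios near or above 1.

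**Figure D1:**
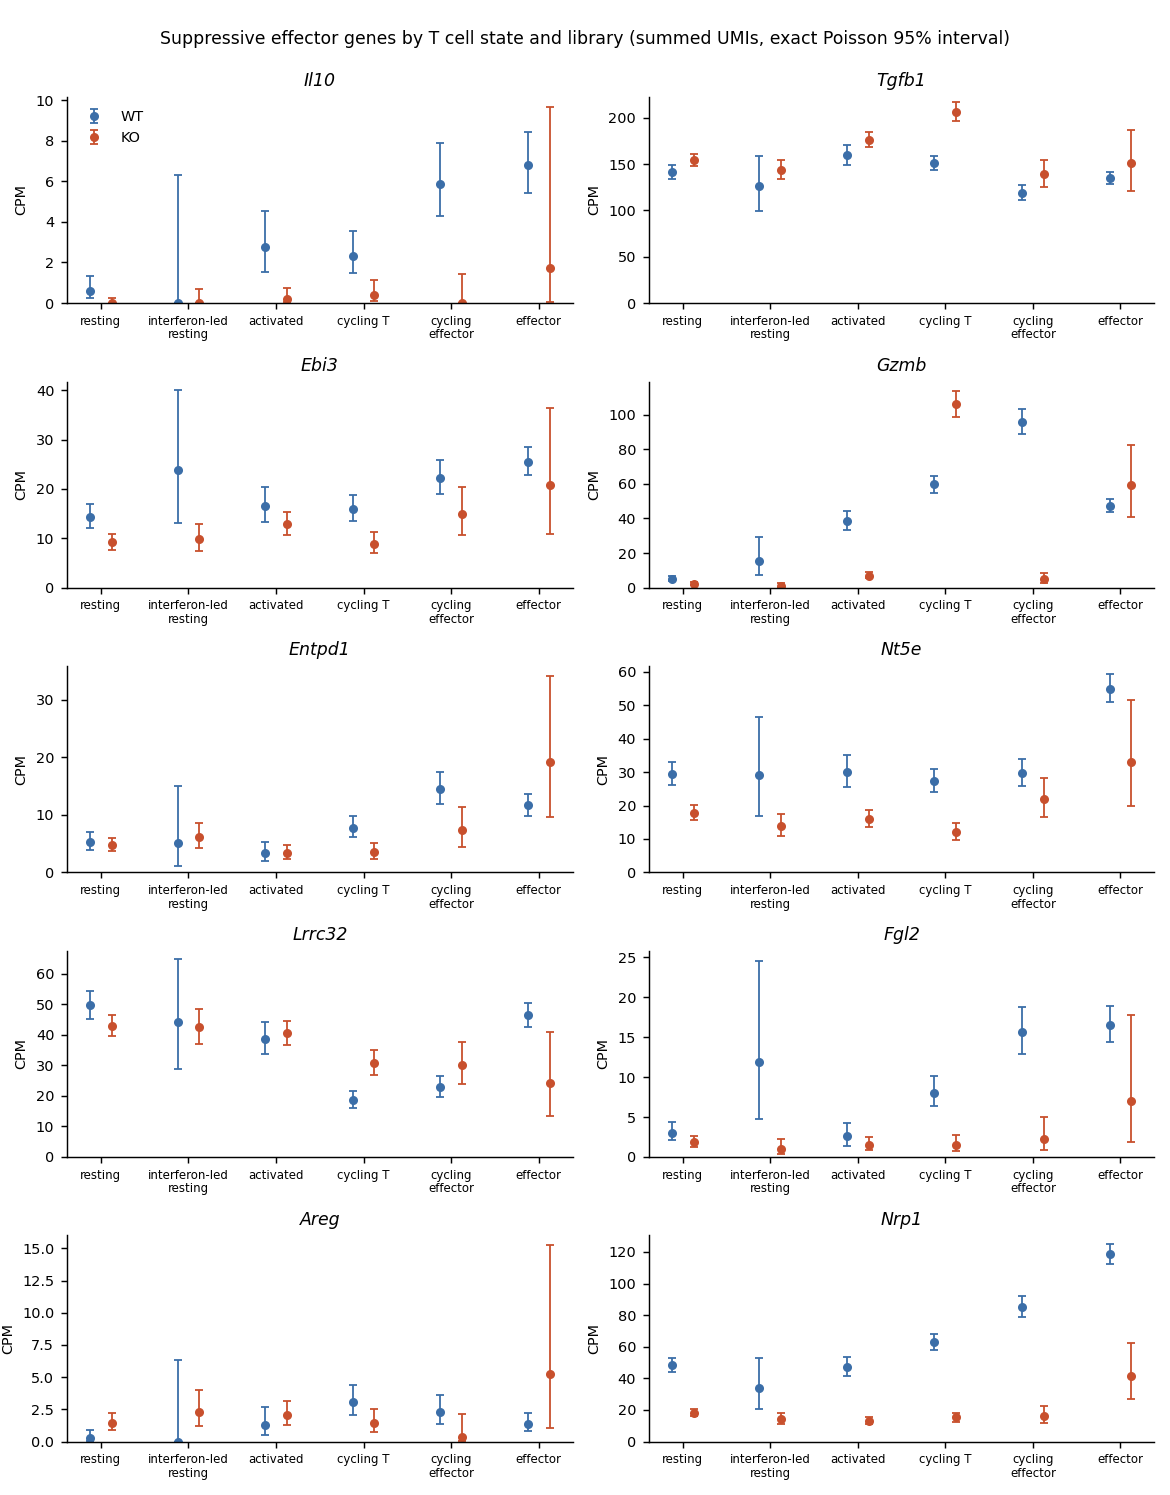
Level of each gene in CPM (linear axes that start at 0 and differ between panels) in the 6 named T cell states, WT in blue and KO in red, with exact Poisson 95% intervals. Nrp1 lies lower in KO in each state, Tgfb1 lies between 119 and 206 CPM throughout, and Gzmb is lower in KO in 4 states and higher in cycling T and effector Treg-like barcodes.

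Il10, the anti-inflammatory cytokine, was detected mainly in WT. It had 173 UMIs in WT T-lineage barcodes (3.67 CPM, 3.15 to 4.26) and 9 in KO (0.184 CPM, 0.0843 to 0.350), a ratio of 0.0502 (0.0226 to 0.0975). In WT the level was 0.611 CPM in resting, 2.75 in activated, 2.33 in cycling T, 5.89 in cycling effector and 6.82 CPM in effector Treg-like barcodes, and no UMI was found in the interferon-led state. The WT effector level was 11.2 times the WT resting level (4.92 to 31.3). The KO UMIs were 2 in activated, 3 in cycling T and 1 in effector Treg-like barcodes, and 3 in unnamed clusters.

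In the cycling effector state Il10 had 44 UMIs in WT and 0 in KO, which is at least 5.13-fold lower when the KO count is set to a floor of 3. One WT barcode held 21 of those 44 UMIs, so the WT level there rests on few cells. In the effector state 85 WT UMIs stood against 1 KO UMI, a ratio of 0.255 with an interval that reaches past 1 (0.00638 to 1.46), since the KO state holds 89 barcodes in all. An Il10 UMI was present in 1.03% of WT and 0.0745% of KO T-lineage barcodes.

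Ebi3, a chain shared by IL-35 and IL-27, was lower in KO in each of the 6 states. It had 926 UMIs in WT (19.7 CPM, 18.4 to 20.96) and 545 in KO (11.2 CPM, 10.2 to 12.1), a ratio of 0.568 (0.510 to 0.632). The ratio ran from 0.415 (0.226 to 0.810) in the interferon-led state, on 14 WT and 52 KO UMIs, to 0.817 (0.418 to 1.45) in the effector state, on 318 and 12. In the activated and effector states the interval included 1. Within each library Ebi3 was higher in effector than in resting barcodes, 1.78-fold (1.45 to 2.18) in WT and 2.28-fold (1.15 to 4.11) in KO.

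Tgfb1, which encodes the cytokine itself, was slightly higher in KO in each state. It had 6650 UMIs in WT (141 CPM, 138 to 145) and 8137 in KO (167 CPM, 163 to 170), a ratio of 1.18 (1.14 to 1.22). The WT levels lay between 119 CPM in cycling effector and 160 CPM in activated Treg-like barcodes, and the KO levels between 139 CPM in cycling effector and 206 CPM in cycling T barcodes. Cycling T barcodes gave the ratio farthest from 1, at 1.36 (1.27 to 1.47), and the intervals of the interferon-led and effector states included 1. No state reached a 2-fold difference.

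Lrrc32, whose product GARP docks latent TGF-β on the Treg surface, was at 36.8 CPM (35.1 to 38.6) in WT and 38.6 CPM (36.9 to 40.4) in KO, a ratio of 1.05 (0.981 to 1.12). By state the direction varied. In resting barcodes Lrrc32 was at 49.7 CPM in WT and 43.0 CPM in KO, in activated barcodes at 38.7 and 40.5 CPM, and in interferon-led barcodes at 44.4 and 42.5 CPM. In cycling effector barcodes it was at 22.9 and 30.3 CPM, a ratio of 1.32 (0.999 to 1.73). In WT it was lower in cycling T than in resting barcodes, at 0.374 times the resting level (0.313 to 0.445), and in KO less so, at 0.715 times (0.614 to 0.831). Cycling T barcodes thus had 18.6 CPM in WT and 30.7 CPM in KO, a ratio of 1.66 (1.36 to 2.02), whereas effector barcodes had 46.5 CPM on 579 UMIs in WT and 24.3 CPM on 14 UMIs in KO, a ratio of 0.524 (0.284 to 0.886).

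The TGF-β partners of these genes were followed in a list of activation and signaling genes. Itgb8, the chain of the integrin that frees TGF-β from GARP, was at 4.54 CPM in WT and 1.84 CPM in KO T-lineage barcodes, a ratio of 0.406 (0.314 to 0.522). It was below 0.5 in resting barcodes at 0.400 (0.221 to 0.707) and in activated barcodes at 0.420 (0.237 to 0.737). In the effector state it had 99 WT UMIs and no KO UMI, which is at least 1.52-fold lower at the floor of 3. Its partner chain Itgav was at 0.416 (0.314 to 0.549) in activated and 0.484 (0.273 to 0.913) in interferon-led barcodes. Smad7, an inhibitor of the pathway, was higher in KO cycling effector barcodes, at 83.9 against 39.5 CPM.

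The ectonucleotidases were both lower in KO over the T lineage. Entpd1, which turns ATP and ADP into AMP, had 410 UMIs in WT (8.70 CPM, 7.88 to 9.59) and 214 in KO (4.38 CPM, 3.82 to 5.01), a ratio of 0.504 (0.425 to 0.596). Nt5e, which turns AMP into adenosine, had 1732 UMIs in WT (36.8 CPM, 35.1 to 38.5) and 792 in KO (16.2 CPM, 15.1 to 17.4), a ratio of 0.441 (0.405 to 0.480). The pair differed in how evenly the KO level was low.

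Nt5e was lower in KO in each of the 6 states, with ratios from 0.441 (0.344 to 0.560) in cycling T to 0.734 (0.539 to 0.986) in cycling effector barcodes and no interval that included 1. In resting barcodes it was at 29.5 CPM in WT and 17.8 CPM in KO. In effector barcodes it was at 55.0 CPM on 685 UMIs in WT and 33.0 CPM on 19 UMIs in KO. In both libraries the effector level was 1.86 times the resting level (WT interval 1.62 to 2.14, KO interval 1.10 to 2.96), the latter on those 19 effector UMIs, while the level was lower in KO.

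Entpd1 was close to equal in resting barcodes, at 5.30 CPM in WT and 4.68 CPM in KO (ratio 0.885, 0.608 to 1.29), and in activated barcodes, at 3.30 and 3.39 CPM. The interferon-led ratio was 1.19 (0.373 to 6.08) on 3 WT and 32 KO UMIs. It was lower in KO in both cycling states, with a ratio of 0.450 (0.278 to 0.709) in cycling T and 0.503 (0.291 to 0.824) in cycling effector barcodes, the latter 3.28 (0.515 to 137) with up to 10% mitochondrial UMIs and new clusters. In the effector state the ratio was 1.64 (0.802 to 3.03) on 145 WT and 11 KO UMIs, of which 7 KO UMIs came from 1 barcode. Of the adenosine pathway genes, the adenosine receptor Adora2a was at 18.2 CPM in WT and 8.69 CPM in KO T-lineage barcodes, a ratio of 0.477 (0.424 to 0.536), and at 0.437 (0.321 to 0.594) in activated barcodes.

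**Figure D2:**
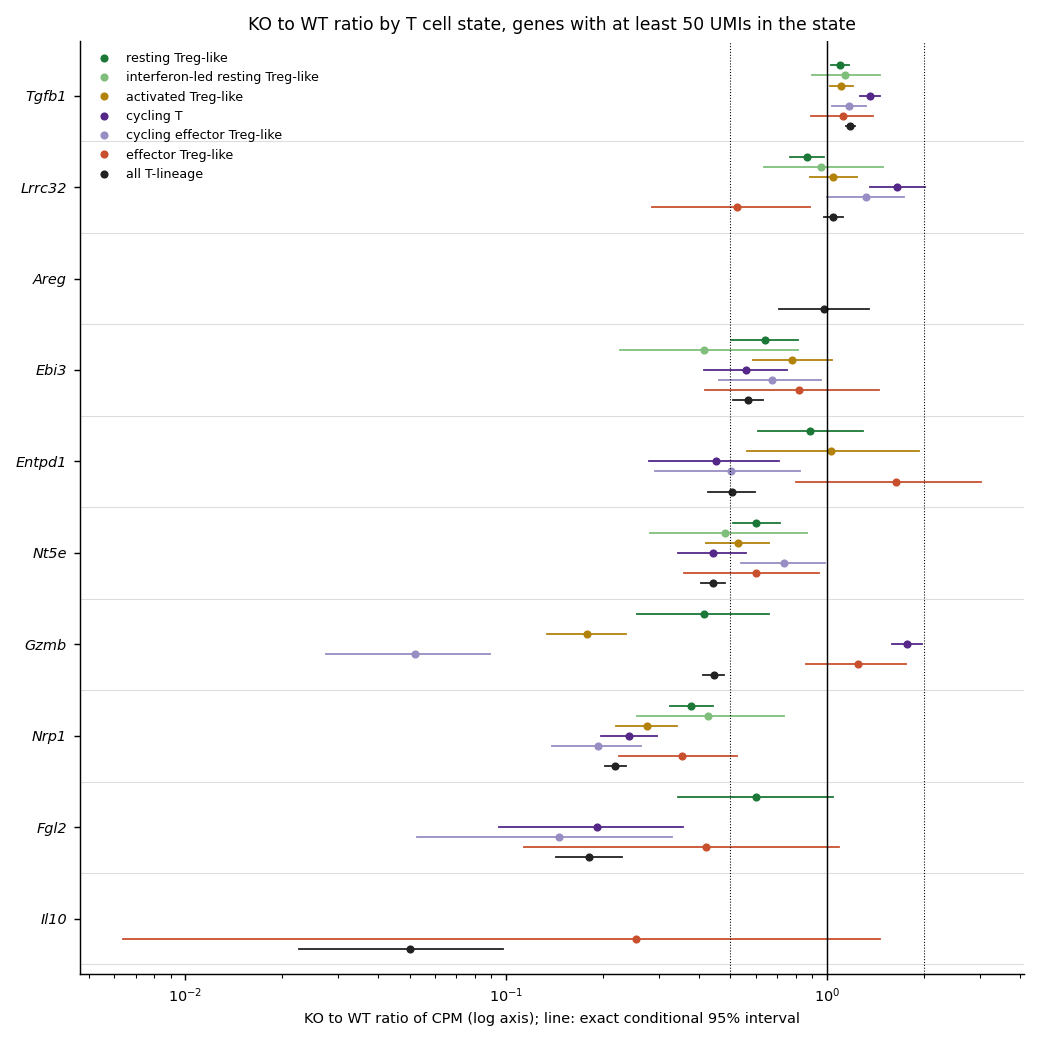
KO to WT ratio of CPM on a log axis for each gene with at least 50 UMIs in a state, with exact conditional 95% intervals; the solid line marks 1 and the dotted lines 0.5 and 2. The points of Nrp1 and Nt5e lie left of 1 in each state shown, those of Tgfb1 right of it, and those of Gzmb run from 0.0519 to 1.78.

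Among the genes with at least 50 UMIs in a state, Gzmb had the widest range of ratios. Over the T lineage it had 2194 UMIs in WT (46.6 CPM, 44.6 to 48.6) and 1007 in KO (20.6 CPM, 19.4 to 21.9), a ratio of 0.443 (0.411 to 0.477). Of the 1007 KO UMIs, 774 lay in 5 cycling T barcodes described below, and as a mean of single-barcode CPM the ratio was 0.198. In WT it was at 5.09 CPM in resting, 15.3 in interferon-led, 38.5 in activated, 59.6 in cycling T, 95.9 in cycling effector and 47.3 CPM in effector barcodes. Gzmb was among the leading genes of both effector clusters after clustering, although it had not been used to form them.

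In KO, Gzmb was lower in 4 states. In resting barcodes it was at 2.10 CPM, a ratio of 0.413 (0.255 to 0.660) that was 0.260 with up to 10% mitochondrial UMIs, and in activated barcodes at 6.89 CPM, a ratio of 0.179 (0.134 to 0.237). The interferon-led state had 9 WT and 6 KO UMIs and a ratio of 0.0744. In cycling effector barcodes 716 WT UMIs stood against 13 KO UMIs, at 95.9 and 4.98 CPM, a ratio of 0.0519 (0.0275 to 0.0893), between barcodes whose effector markers summed to 4014 and 626.2 CPM. This value depended on the clustering. With up to 10% mitochondrial UMIs and new clusters, the 52 WT barcodes of this name held no Gzmb UMI, so no ratio was formed.

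In the other two states the summed KO level was above the WT level. KO cycling T barcodes had 820 UMIs, or 106 CPM (98.8 to 113), against 562 UMIs and 59.6 CPM (54.8 to 64.8) in WT, a ratio of 1.78 (1.59 to 1.98). Those KO UMIs were held by few barcodes: 5 barcodes with at least 10 Gzmb UMIs held 774 of the 820, and 1 of them held 385. Together these 5 barcodes had no Foxp3 UMI, 10 UMIs of the Treg factor Ikzf2, 571 UMIs of Gzma, a granzyme of cytotoxic cells, and 49 of Cd3e among 124379 UMIs. They also held 16 Cd4, 2 Ctla4 and 32 Il2ra UMIs, the last at 257.3 CPM against 224.4 CPM in the KO cycling T barcodes without Gzmb. Of the other genes in the cytotoxic list given below, Nkg7 had 242 UMIs, at 1946 CPM against 44.5 CPM in those barcodes without Gzmb. Prf1 had 19 UMIs and Klrk1 8, while Cd8a, Cd8b1, Ncr1, Klrb1c and Eomes had 0. The 14 WT cycling T barcodes with at least 10 Gzmb UMIs held 362 of the 562, with 6 Foxp3, 141 Ikzf2 and 26 Gzma UMIs among 269845. By share of barcodes the direction was the other one, since 16.1% of WT and 5.07% of KO cycling T barcodes had a Gzmb UMI (3.71% and 1.69% at equal depth). As a mean of single-barcode CPM the ratio was 0.868. The list of natural killer (NK) and cytotoxic cell genes, which holds Gzma, summed to 171.4 CPM in WT (Cd8a at 0) and 198.3 CPM in KO (Ncr1 at 0) cycling T barcodes.

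KO effector barcodes had 34 Gzmb UMIs, or 59.1 CPM (40.9 to 82.6), against 589 UMIs and 47.3 CPM (43.5 to 51.2) in WT, a ratio of 1.25 (0.857 to 1.77). Markers of other cell types were higher in KO beside this value. The 9 genes of the NK and cytotoxic list summed to 1246 CPM in KO and 174.6 CPM in WT effector barcodes, with Eomes at 0 in KO. The 8 mast cell and basophil genes summed to 1286 CPM in KO and 180.6 CPM in WT, with Tpsb2, Mcpt4 and Kit at 0 in KO. With the 10 KO and 11 WT barcodes that held at least 3 UMIs of either kind left out, the Gzmb ratio was 0.667 (0.379 to 1.09).

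**Figure D3:**
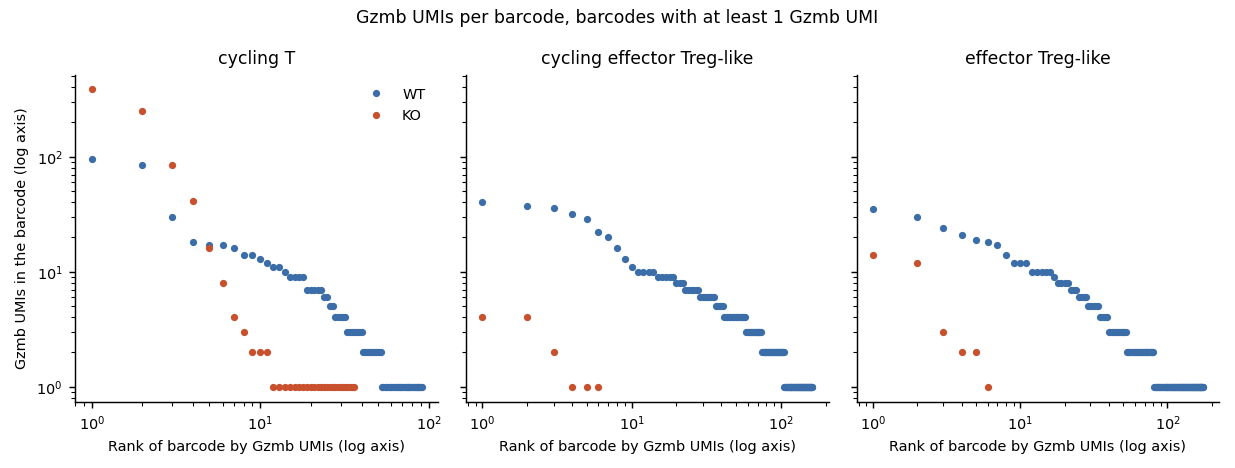
Gzmb UMIs per barcode against the rank of the barcode by Gzmb UMIs, both on log axes, for barcodes with at least 1 Gzmb UMI in 3 states, WT in blue and KO in red. In cycling T barcodes the KO points start at 385 UMIs and drop to single UMIs within few ranks. The WT points there start at 95 and 84 UMIs, fall to 30 at rank 3 and decline more slowly after it. In the cycling effector and effector panels the WT points decline slowly from 40 and 35 UMIs.

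The 6 other granzyme pathway genes did not move as one in these states. Their median ratio was 0.987 in cycling T barcodes, where 3 of the 6 were lower in KO, and 1.84 in effector barcodes, where 2 were. Gzma was at 21.5 CPM in WT and 99.3 CPM in KO cycling T barcodes, a ratio of 4.61 (3.95 to 5.41), and at 22.6 and 729.9 CPM in effector barcodes, a ratio of 32.3 (27.7 to 37.6). Prf1, which encodes the pore protein perforin, was at 4.41 CPM in WT and 33.0 CPM in KO effector barcodes, a ratio of 7.48 (4.19 to 12.8) on 55 and 19 UMIs. Gzma and Prf1 also belong to the NK and cytotoxic list given above. Serpinb9, the inhibitor of granzyme B, was at 2.12 in effector barcodes on 102 WT and 10 KO UMIs, with an interval that included 1 (0.988 to 4.07). In cycling T barcodes Prf1 was at 1.01 and Serpinb9 at 1.11, while Srgn, the proteoglycan of the granule, was lower in KO at 0.538 (0.517 to 0.560).

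Fgl2 had 462 UMIs in WT (9.81 CPM, 8.93 to 10.7) and 87 in KO (1.78 CPM, 1.43 to 2.20), a ratio of 0.182 (0.143 to 0.229). In WT it was at 3.06 CPM in resting, 11.9 in interferon-led (on 7 UMIs), 2.57 in activated, 8.06 in cycling T, 15.7 in cycling effector and 16.5 CPM in effector barcodes. In KO the level was 1.83 CPM in resting, 0.952 in interferon-led (on 5 UMIs), 1.54 in activated, 1.55 in cycling T, 2.30 in cycling effector and 6.95 CPM in effector barcodes, the last on 4 UMIs. The ratio was therefore 0.0797 (0.0200 to 0.292) in interferon-led, 0.192 (0.0951 to 0.356) in cycling T, 0.147 (0.0527 to 0.329) in cycling effector and 0.421 (0.114 to 1.09) in effector barcodes. The cycling effector value depended on the clustering, being 0.966 (0.108 to 45.7) when up to 10% mitochondrial UMIs were allowed and 52 WT barcodes held the name. In resting and activated barcodes, where the WT level was low, it was 0.600 (0.343 to 1.04) and 0.601 (0.270 to 1.34).

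Areg had the fewest UMIs of the 10 genes over both libraries, with 80 in WT and 81 in KO, or 1.70 CPM (1.35 to 2.11) and 1.66 CPM (1.32 to 2.06), a ratio of 0.977 (0.709 to 1.35). Its states ran in opposite directions on small counts. Resting barcodes had 3 UMIs in WT and 21 in KO, a ratio of 4.67 (1.39 to 24.4), and interferon-led barcodes 0 and 12. Cycling T barcodes had 29 UMIs in WT and 11 in KO, a ratio of 0.462 (0.208 to 0.952), and cycling effector barcodes 17 and 1. Activated barcodes had 7 and 20, a ratio of 1.60 (0.651 to 4.48), and effector barcodes 17 and 3, a ratio of 3.82 (0.718 to 13.2). The resting ratio was 1.64 (0.786 to 3.74) with up to 10% mitochondrial UMIs and new clusters. Of the 29 WT cycling T UMIs, 19 came from 1 barcode, and 10 of the 20 KO UMIs in activated barcodes came from 1 barcode.

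Nrp1 was lower in KO in each of the 6 states. It had 3587 UMIs in WT (76.1 CPM, 73.7 to 78.7) and 814 in KO (16.7 CPM, 15.6 to 17.9), a ratio of 0.219 (0.203 to 0.236). The ratio was 0.378 (0.324 to 0.440) in resting, 0.424 (0.257 to 0.733) in interferon-led, 0.275 (0.220 to 0.342) in activated, 0.242 (0.197 to 0.295) in cycling T, 0.194 (0.139 to 0.264) in cycling effector and 0.352 (0.225 to 0.526) in effector barcodes. Each of these intervals lay below 1. With up to 10% mitochondrial UMIs and new clusters the ratio was 0.515 (0.258 to 1.10) in cycling effector and 0.573 (0.424 to 0.758) in effector barcodes. In WT the level went from 48.2 CPM in resting to 63.0 in cycling T, 85.1 in cycling effector and 118 CPM in effector barcodes. In KO it was 18.2, 15.2, 16.5 and 41.7 CPM in the same states. The effector to resting ratio was alike within the 2 libraries, at 2.46 (2.22 to 2.74) in WT and 2.29 (1.44 to 3.48) in KO, the latter on 24 effector UMIs. The Nrp1 ligand Sema4a had 37 WT and 28 KO UMIs in cycling effector barcodes, a ratio of 2.16 (1.28 to 3.63).

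Counted by state, few of the 10 genes passed 2-fold, and those that did were lower in KO. In resting barcodes 2 of the 8 genes with at least 50 UMIs, Gzmb and Nrp1, were 2-fold lower, against 2.09% of all genes (0.507% were 2-fold higher). In interferon-led barcodes it was 3 of 5, namely Ebi3, Nt5e and Nrp1, against 2.62% (3.15% higher), and in activated barcodes 2 of 7, Gzmb and Nrp1, against 2.91% (1.60% higher). In cycling T barcodes it was 4 of 8, Entpd1, Nt5e, Fgl2 and Nrp1, against 3.44% (2.51% higher). In cycling effector barcodes it was 3 of 8, Gzmb, Fgl2 and Nrp1, against 4.90% (3.36% higher), and in effector barcodes 3 of 9, Il10, Fgl2 and Nrp1, against 9.20% (2.80% higher). The effector intervals of Il10, on 1 KO UMI, and of Fgl2, on 4, included 1. None of the 10 genes was 2-fold higher in a state by this count, and Areg, whose resting ratio was above 2, had under 50 UMIs in each state. Medians over the genes counted ran from 0.469 in the interferon-led state to 0.778 in activated barcodes, while those of all genes ran from 0.941 to 1.02.

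A list of 42 genes of the same pathways gave medians nearer to those of all genes, from 0.841 in resting to 1.11 in cycling T barcodes. Over the T lineage 5 of its 37 genes with at least 50 UMIs were 2-fold lower in KO and none was 2-fold higher. Besides Itgb8 and Adora2a these were the inhibitory receptors Pdcd1, Tigit and Havcr2. Pdcd1, which encodes PD-1, was at 33.7 CPM in WT and 11.4 CPM in KO, with ratios of 0.352 (0.290 to 0.427) in activated, 0.443 (0.359 to 0.544) in cycling T and 0.351 (0.230 to 0.518) in cycling effector barcodes. Tigit had 163 WT and 7 KO UMIs and Havcr2, which encodes TIM-3, 90 and 16. Higher in KO were Il2ra, the α chain of the IL-2 receptor, in cycling effector barcodes at 206.8 against 86.0 CPM, and the checkpoint receptor Lag3 in effector barcodes at 41.7 against 11.2 CPM. The KO effector state held 89 barcodes, 10 of them with at least 3 UMIs of NK and CD8 or of mast cell genes. The part of those barcodes in the Lag3 value was not tested.

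Since the libraries differed in how many barcodes each state held, the T-lineage level was also computed with levels or state shares exchanged. With the KO levels at the WT shares, the ratio to the WT level was 0.304 for Nrp1, 0.329 for Fgl2, 0.213 for Il10 and 0.575 for Nt5e. With the WT levels at the KO shares it was 0.743 for Nrp1, 0.602 for Fgl2, 0.409 for Il10 and 0.859 for Nt5e. For Nrp1 and Nt5e the exchange of levels moved the value farther than the exchange of shares, with KO effector levels on 24 and 19 UMIs. Both exchanges include the unnamed clusters, and the WT levels in cluster 2 rest on 12 Nrp1 and 8 Nt5e UMIs in 131 barcodes. They also rest on states whose barcodes differ in their markers between the libraries. No order is read for Fgl2 and Il10, since their KO effector levels rest on 4 UMIs and 1 UMI, and Il10 had 9 KO UMIs in all. Entpd1 gave 0.971 with KO levels and 0.668 with KO shares, and Gzmb 0.841 and 0.684. No order is read from the last pair of genes, since the KO levels behind them rest on few barcodes, namely the 5 that held 774 of 820 Gzmb UMIs in cycling T and the 1 that held 7 of 11 Entpd1 UMIs in the effector state. Ebi3 gave 0.699 and 0.962, Tgfb1 1.17 and 1.02, Lrrc32 0.896 and 1.08, and Areg 1.40 and 0.609.

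**Figure D4:**
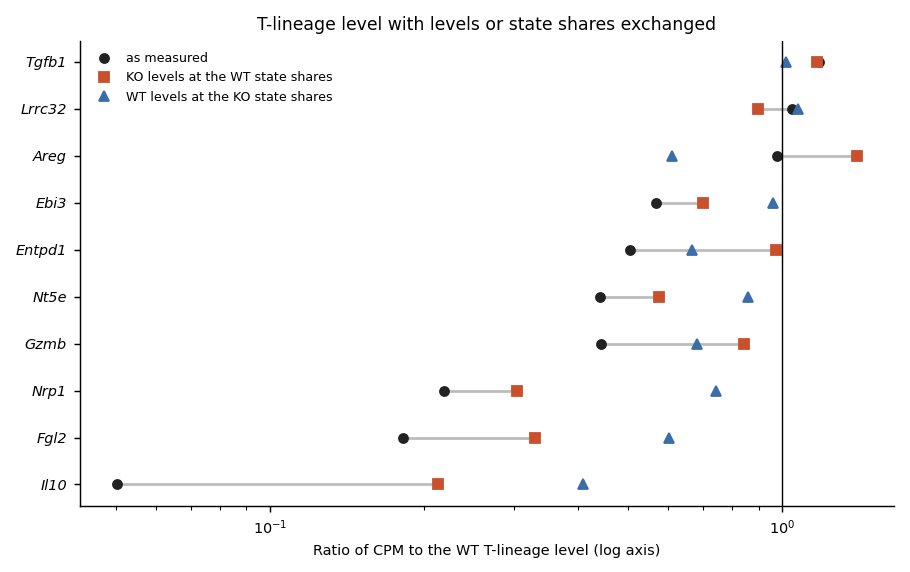
Ratio to the WT T-lineage level in CPM (log axis) as measured in KO (black), with KO levels at the WT state shares (red squares) and with WT levels at the KO state shares (blue triangles). Red squares lie left of blue triangles for Il10, Fgl2, Nrp1, Nt5e, Ebi3 and Lrrc32 and right of them for Gzmb, Entpd1, Areg and Tgfb1. The red squares of Gzmb and Entpd1 rest on few KO barcodes, and those of Il10 and Fgl2 on few KO UMIs.

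The share of barcodes with a UMI was compared at equal depth by thinning each barcode to 1000 UMIs, which left 6250 WT and 11023 KO T-lineage barcodes. Erythroid-like barcodes (288 WT and 485 KO, medians of 4342 and 2470 UMIs, against 4998 and 2692 in the T lineage), which should lack most of these transcripts, served as the background. In them the 7 T-lineage markers summed to 945 CPM in WT and 1590 CPM in KO, against 6799 and 6253 CPM in T-lineage barcodes. The background thus differed between the libraries, and whether it is free RNA was not tested. Nrp1 was found in 6.27% of WT and 1.66% of KO T-lineage barcodes, against 0% and 0.441% of erythroid-like barcodes. Gzmb was found in 2.51% and 0.436%, against 0.418% and 0.661%, so that the KO share did not exceed the background, which rests on few barcodes. By summed level, KO Gzmb was at 20.6 CPM in the T lineage, with 774 of 1007 UMIs in 5 cycling T barcodes. In KO erythroid-like barcodes it was at 1.66 CPM on 4 UMIs. Nt5e was found in 3.66% and 1.72%, against 1.26% and 0.220%, and Fgl2 in 1.07% and 0.227%, against 0.837% and 0.220%, so neither share of Fgl2 stood clear of its background, which rests on 2 of 239 WT and 1 of 454 KO barcodes. For Areg the T-lineage shares of 0.176% and 0.172% stood against 0% and 0.220%, which again left no KO share above the background. A share of 0% among the 239 thinned WT erythroid-like barcodes allows up to 1.26% by the limit of 3 counts.

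Tgfb1 was found in 13.8% of WT and 14.8% of KO T-lineage barcodes and in 5.44% and 8.81% of erythroid-like ones, and Lrrc32 in 3.54% and 3.90%, against 0.837% and 1.10%. Ebi3 was found in 1.71% and 1.14%, Entpd1 in 0.800% and 0.354%, and Il10 in 0.208% and 0.0272%. Among erythroid-like barcodes Ebi3 and Il10 were found in none, and Entpd1 in none of WT and 0.220% of KO, which allows up to 1.26% in WT and 0.661% in KO where none was found. These limits exceed the T-lineage shares of Il10 and the WT share of Entpd1, so no excess over background is read from them. Without thinning, the WT and KO shares were 27.4% and 5.49% for Nrp1, 7.71% and 1.23% for Gzmb, 17.1% and 5.69% for Nt5e, 4.99% and 0.720% for Fgl2, and 47.3% and 39.1% for Tgfb1. Unthinned Lrrc32 gave 17.8% and 12.6%, Ebi3 10.1% and 3.76%, Entpd1 4.80% and 1.67%, and Areg 0.683% and 0.447%. Tgfb1 had the higher share in WT without thinning and in KO after it. For Lrrc32 the order varied with the thinning, since at 2000 UMIs per barcode it was found in 8.26% of WT and 7.36% of KO barcodes and at 500 UMIs in 2.06% and 2.09%. At least 1 of the 10 genes was found in 29.3% of WT and 22.7% of KO thinned T-lineage barcodes, and in 8.37% and 11.9% of erythroid-like ones.

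**Figure D5:**
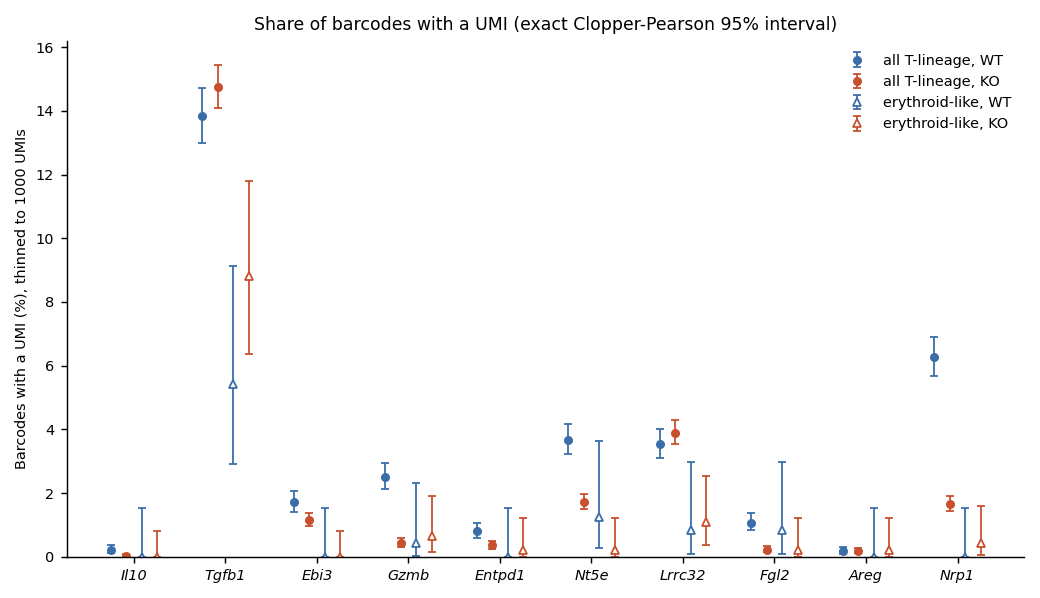
Percent of barcodes with at least 1 UMI of each gene after thinning to 1000 UMIs (linear axis from 0), for all T-lineage barcodes (filled circles) and erythroid-like barcodes (open triangles), WT in blue and KO in red, with exact Clopper-Pearson 95% intervals. WT T-lineage shares exceed KO shares widely for Nrp1, Gzmb and Nt5e, and the erythroid-like share is highest for Tgfb1.

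The genes were also compared by their pattern over 18 profiles, each a T-lineage cluster in one library, by Pearson r of log2(CPM + 1) among 8608 genes. These values are descriptions, as the profiles of a library share its cells and depth. Most like Nrp1 were Nav2 (0.937), Psen2 (0.936) and Adk (0.934), and most like Nt5e were Fnbp1 (0.928), Arntl (0.926) and Man2a1 (0.908). Sgms1 (0.911), Coro1b (0.889) and Rnf125 (0.866) were nearest to Fgl2, and Impa2 (0.859) was nearest to Gzmb. Entpd1 had Sdcbp2 (0.884), Yipf5 (0.849) and Icos (0.828), a costimulatory receptor of effector Tregs. Ebi3 had Gm17745 (0.873), Smim1 (0.868) and Il18rap (0.854), Lrrc32 had Washc2 (0.881), Parp3 (0.879) and Inpp5f (0.868), and Tgfb1 had Hnrnpdl (0.834), Baiap2 (0.806) and Slc20a1 (0.800). Among the 8 of the 10 genes compared in this way, which leaves out Il10 and Areg, the pairs most alike were Nt5e and Nrp1 (0.849), Fgl2 and Nrp1 (0.821) and Nt5e and Fgl2 (0.742), and the least alike were Tgfb1 and Ebi3 (-0.619).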

How the data were processed

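Cells sorted from spleen had been run on the 10x Genomics platform, and the authors deposited raw UMI counts per gene and barcode, made with Cell Ranger 5.0.1 on mm10 per the submitters' processing notes. Barcodes with few genes or many mitochondrial UMIs are still present, so no such filter had been applied. The counts were used unchanged. The 2 libraries share 70 barcode sequences, 27 of them among kept barcodes, and these were left in.

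The kept barcodes had 300 genes or more and 5% mitochondrial UMIs or less. Scrublet scores (scanpy 1.11.5) marked the top 5% of WT (726) and 8% of KO (1451) barcodes as doublets, which matches the study's doublet numbers, whereas its methods give the fractions the other way round. Counts were scaled to 10000 and log-transformed, and 2000 variable genes, leaving out the 10 genes, the pathway list, all markers, technical and sex-linked genes and Zfp335, were clipped at 10, reduced to 30 components (scikit-learn 1.9.0) and clustered over 20 neighbors by the Leiden method (igraph 0.11.9, resolution 0.5, seed 1), with no integration. Clusters under 50% of the usual T cell receptor and CD3 level were set apart as other lineages. Names came from marker lists, by a rule set after the data had been seen. In T-lineage clusters a name needed at least 3 markers and 66% of the list to be raised. An effector name also needed an effector marker among the 10 leading genes. Names were withheld where a marker of another lineage was among those 10 or where resting and effector lists were both raised.

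UMIs were summed per library and state. CPM carry exact Poisson intervals, ratios exact conditional binomial intervals (scipy 1.17.1) and shares Clopper-Pearson intervals. A gene counted as past the fold at 2-fold with at least 50 UMIs over both libraries, among all genes by the same rule. On simulated counts for the resting state, all genes set to 4-fold or 0.25-fold were past the fold, with 0.0409% of unchanged ones. In the cycling effector state 97.8% of genes set to 0.25-fold and 0.302% of unchanged ones were past it. Thinning was 1 random draw to 1000 UMIs. Named in the text are the 10 genes by state, some as ranges over the states, pathway genes past the fold (at most 5 per state) and the 3 genes most like each gene with at least 500 UMIs, over profiles of at least 100000 UMIs; for Gzmb the nearest gene is given and the others are not reported here. Levels were not compared between genes. Gene positions come from GENCODE M21, and 8 of the 10 genes had an entry in the promoter table. Il10 and Lrrc32 had none. The 10 genes, the lists and the tests were chosen with earlier results of these data known. The alternatives that leave out barcodes of other cell types, the barcodes richest in Gzmb and the unnamed clusters were chosen after seeing the data.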

Additional observations from a re-analysis of the deposited data

Results flagged for a closer look

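The ratio of Gzmb differed between states: 0.0519 in cycling effector Treg-like and 1.78 in cycling T barcodes. Their intervals lie on opposite sides of 1, each genotype is 1 library, and the difference was not tested. In cycling T barcodes 5 KO barcodes without a Foxp3 UMI held 774 of 820 Gzmb UMIs, and the part of such barcodes in the cycling effector value, which rests on 13 KO UMIs, was not tested.

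Lrrc32 was at a ratio of 0.524 in effector Treg-like barcodes, on 14 KO UMIs, and at 1.66 in cycling T barcodes, on 238. The difference was not tested.

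Areg was at 0.462 in cycling T barcodes, where 19 of 29 WT UMIs came from 1 barcode, and at 4.67 in resting Treg-like barcodes, on 3 WT and 21 KO UMIs. The difference was not tested.

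Barcodes over 5% mitochondrial UMIs entered no comparison other than the alternative that lets in barcodes up to 10%. They also held UMIs of these genes, with a median of 1263 UMIs in 6471 WT and 1361 in 4364 KO barcodes. In them Tgfb1 was at 221 CPM in KO and 178 CPM in WT, and Lrrc32 at 66.6 CPM in KO and 51.3 CPM in WT. Nrp1 was at 36.2 CPM in KO and 111 CPM in WT there, Nt5e at 32.2 and 61.6 CPM, and Gzmb at 6.77 and 23.6 CPM.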

How the results depend on the processing

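Of the T-lineage ratios under the alternatives, 84 stayed within the interval of the value as reported and 7 moved. As a mean of single-barcode CPM the ratio was 0.102 for Il10, 1.14 for Tgfb1, 0.198 for Gzmb, 0.951 for Lrrc32 and 0.246 for Nrp1. The Gzmb ratio was 0.506 without the unnamed clusters and 0.0281 without the 1% of barcodes richest in Gzmb, a setting chosen after seeing the data that leaves out 121 KO and 74 WT barcodes by the value compared, so that nothing is read from it. Of the ratios by state, 338 kept their value within the interval, 15 moved and 1 reversed, that of Il10 in effector Treg-like barcodes, which was 1.03 as a mean of single-barcode CPM and rests on 1 KO UMI. The directions of Lrrc32 in the interferon-led, activated and cycling effector states, of Entpd1 in the activated and both effector states, of Gzmb in cycling T and effector barcodes and of Areg over the T lineage varied with the setting. Of the counts past the fold, 128 stayed within 1.5 times and 10 moved. At 1.5-fold, 5 genes were lower in resting and 5 in effector barcodes, and 2 were higher in cycling T and 1 in effector barcodes. Without the minimum of 50 UMIs, 1 was higher in resting, 1 in interferon-led and 1 in effector barcodes, and 5 were lower in interferon-led and 5 in cycling effector barcodes. The higher gene was Areg in each case, on small counts. The share of all genes was not computed at 1.5-fold or without the minimum, so nothing is read from these counts. With up to 10% mitochondrial UMIs and new clusters, 0 were lower in cycling effector barcodes, of which 52 were WT and 281 KO, again without a share of all genes. Those WT barcodes held no Gzmb UMI, so Gzmb had no ratio in that state. The interferon-led state had no cluster of its own at that setting, nor when the 10 genes and the pathway list were allowed in clustering. No paired analysis was possible because each genotype has 1 library. Shares followed the thinning depth. Il10, Areg and the KO effector state, with 89 barcodes, are limited by their counts.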

Other observations

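Several of the 10 genes were also found in barcodes of other lineages, which no comparison above uses except as background. Ebi3 was at 104.7 CPM in WT and 83.9 CPM in KO neutrophil-like barcodes (93 and 83 barcodes) and at 40.7 and 39.0 CPM in myeloid progenitor-like barcodes (99 and 107), against 19.7 and 11.2 CPM in the T lineage. Nrp1 was at 30.4 CPM in WT and 28.2 CPM in KO myeloid progenitor-like barcodes, and Fgl2 at 16.8 and 13.9 CPM. Tgfb1 was at 209.6 and 213.5 CPM in the same barcodes. In these barcodes the KO and WT values of Nrp1 and Fgl2 lay close together. In erythroid-like barcodes Nrp1 had 10 KO and 27 WT UMIs, a ratio of 0.411 (0.177 to 0.875). Nt5e had 7 and 29 there, a ratio of 0.268 (0.0990 to 0.624), against 1.21 (0.605 to 2.39) in neutrophil-like barcodes.

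Pairs of the genes were also counted in the same barcode over the T lineage, without thinning. Gzmb and Il10 were found together in 23 WT barcodes, against 5.78 from the product of their shares, and in 0 KO barcodes. Nrp1 and Entpd1 were found together in 180 WT barcodes against 96.3 from the product, and in 23 KO barcodes against 11.1. These counts pool all states. Within WT states Nrp1 and Entpd1 were together in 64 effector barcodes against 60.7, in 50 cycling effector barcodes against 42.5 and in 17 resting barcodes against 7.51. Gzmb and Il10 were together in 9 WT effector barcodes against 3.57. Deeper barcodes hold more UMIs of both genes of any pair, and at equal depth Gzmb and Il10 were together in 2 WT barcodes against 0.327 from the product, and Nrp1 and Entpd1 in 7 WT barcodes against 3.14 and in 1 KO barcode against 0.647. The ectonucleotidases Entpd1 and Nt5e were together in 1 WT and 3 KO barcodes at equal depth, and Tgfb1 and Lrrc32 in 31 WT barcodes against 30.6 from the product and in 58 KO barcodes against 63.4.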
